A study of Mus musculus with 4 samples.

Results

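Transcript levels of 10 genes for the proteoglycan and hyaluronan matrix of the brain were examined in the ischemic mouse hippocampus. The genes were taken by symbol, from 22609 symbols in all, and are Bcan, Ncan, Acan, Vcan, Hapln1, Tnr, Tnc, Cd44, Has2 and Ptprz1. All 10 were found, and all 10 passed the filter on low counts that left 14527 genes for testing. The 4 hippocampus libraries comprised 2 from FLOX+GCI mice and 2 from FBN-ARO-KO+GCI mice, where GCI stands for global cerebral ischemia. Both groups were females aged 3 to 5 months, ovariectomized 1 week before surgery, in which both common carotid arteries were occluded for 20 min, and RNA was taken after 24 h of reperfusion. FBN-ARO-KO mice carry a Cre/LoxP deletion of Cyp19a1, the aromatase gene, driven by the CaMKIIα promoter and so limited to excitatory neurons of the forebrain, and FLOX mice are the controls. Other cell types keep the gene. No sham-operated library was analysed here, so a level cannot be set against the uninjured hippocampus, and nothing in the labels says whether the libraries of a group are separate mice, so the tests measure the spread between these libraries only.

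In the brain, long chains of hyaluronan are made at the cell surface by hyaluronan synthases such as Has2. Chondroitin sulfate proteoglycans of the lectican family, which are brevican (Bcan), neurocan (Ncan), aggrecan (Acan) and versican (Vcan), bind hyaluronan at their N-terminal end, where link proteins such as Hapln1 hold the bond, and bind tenascins such as Tnr and Tnc at their C-terminal end. This lattice fills the space between cells and condenses into perineuronal nets around certain neurons, above all parvalbumin interneurons, in which aggrecan is a main component. Ptprz1 is a receptor phosphatase of glia that carries chondroitin sulfate and has a secreted form, phosphacan. Cd44 is a receptor for hyaluronan that reactive astrocytes and immune cells carry. After brain injury, glia are known to change their output of neurocan, versican, tenascin-C and Cd44.

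The 4 libraries held between 24333396 and 33076795 counts on genes, and 3 counts, taken as the lowest level that could be shown, equaled 0.0905 to 0.122 CPM (counts scaled to library size), which covers counting error only. CPM values below are scaled between libraries by TMM, a factor computed from most genes. The neuronal transcript Camk2a stood between 4916 and 5170.4 CPM and the dentate granule cell transcript Prox1 between 50.5 and 61.9 CPM, so both were present in every library. No other brain region was set beside them, so the hippocampal label itself was not tested. Cyp19a1 had 4 and 1 counts in the FLOX+GCI libraries, against 2 and 2 counts in the FBN-ARO-KO+GCI libraries, which is not enough to check the genotype labels. FLOX+GCI replicate 2 stood apart in transcripts of reactive astrocytes: the 12 listed markers summed to 747 CPM in FLOX+GCI replicate 1, 1495 CPM in FLOX+GCI replicate 2, and 889 and 887 CPM in FBN-ARO-KO+GCI. Most of each sum was Gfap, with 396 and 900 CPM in the FLOX+GCI libraries, against 502 and 560 CPM in the FBN-ARO-KO+GCI libraries. Fold changes of members that rest on that library are given below with and without it, and those of related and marker genes with it only.

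To compare one gene with another, CPM was divided by the length of all annotated exons of the gene, which understates genes with many alternative exons such as Vcan. On this scale Bcan was the most abundant, with a mean over the 4 libraries of 70.0 CPM per kb. Ncan at 30.03 and Ptprz1 at 28.9 CPM per kb came next, and their libraries overlapped. Tnr followed at 19.8 and Hapln1 at 6.39 CPM per kb, each apart from its neighbors in every library. Below them Vcan at 1.61, Cd44 at 1.28, Acan at 1.02 and Tnc at 0.789 CPM per kb were neighbors whose libraries overlapped, and Has2 was lowest at 0.139 CPM per kb, under every other member in every library. Transcripts of brevican, neurocan, Ptprz1 and tenascin-R thus outnumbered those of aggrecan, versican and tenascin-C in every library.

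**Figure D1:**
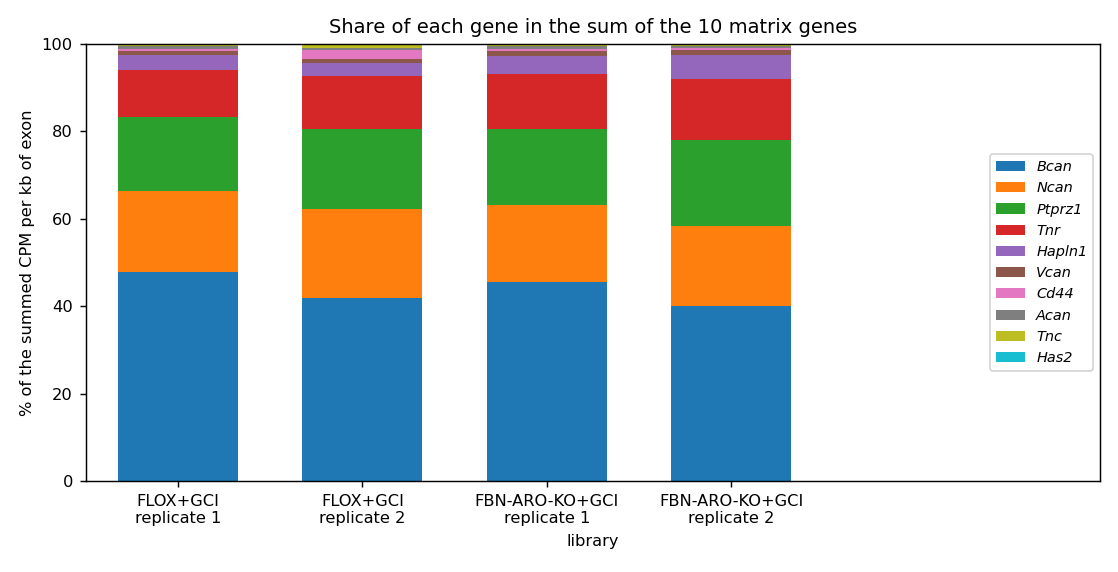
Stacked bars give, for each of the 4 libraries, the percentage of the summed CPM per kb of exon that each of the 10 genes contributed. Bcan, Ncan and Ptprz1 together made up between 78.1% and 83.3% of the sum, and the Hapln1 share was 3.57% and 2.96% in the FLOX+GCI libraries, against 4.198% and 5.32% in the FBN-ARO-KO+GCI libraries.

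The sum of the 10 genes was similar in both genotypes, at 159 and 169 CPM per kb in the FLOX+GCI libraries, against 153 and 159 CPM per kb in the FBN-ARO-KO+GCI libraries. The 4 lecticans alone summed to 108 and 108 CPM per kb in the FLOX+GCI libraries, against 99.6 and 95.5 CPM per kb in the FBN-ARO-KO+GCI libraries, so that both FBN-ARO-KO+GCI libraries lay below both FLOX+GCI libraries, mainly through Bcan and Ncan. The groups were likewise apart in 51.8% of all tested genes taken singly. In a fit corrected for the GC content and length of transcripts, given below, the log2 fold change of Bcan was 0.09 and that of Ncan -0.15.

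The first comparison asked whether these transcripts differed between the genotypes after ischemia. None of the 10 genes passed edgeR's quasi-likelihood test at an adjusted p of 0.05, where 0.0138% of all tested genes did, and the smallest adjusted p among them was 0.245. DESeq2 also called 0 of the 10, of which it left 5 without an adjusted p, beside 4.6% of all genes to which it gave one. At an unadjusted p of 0.05, 2 of the 10 passed (20.0%), beside 16.5% of all tested genes: Hapln1 with higher values in FBN-ARO-KO+GCI and Cd44 with lower values. In DESeq2, 1 of the 10 passed at an unadjusted p of 0.05, beside 10.4% of all genes. In edgeR 8.72% of all genes passed with higher and 7.82% with lower values, so the share of members that passed was close to that of genes at large. In total 4 members had positive and 6 had negative log2 fold changes, with a median of -0.16, beside -0.01 over all tested genes. Without FLOX+GCI replicate 2 the median of the members was 0.07, with 6 positive and 4 negative. In 5 of the 10 genes the groups did not overlap, beside 51.8% of all tested genes, again close to the background. For a single gene, an exact permutation test of 2 against 2 libraries cannot go below a two-sided p of 0.333.

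**Figure D2:**
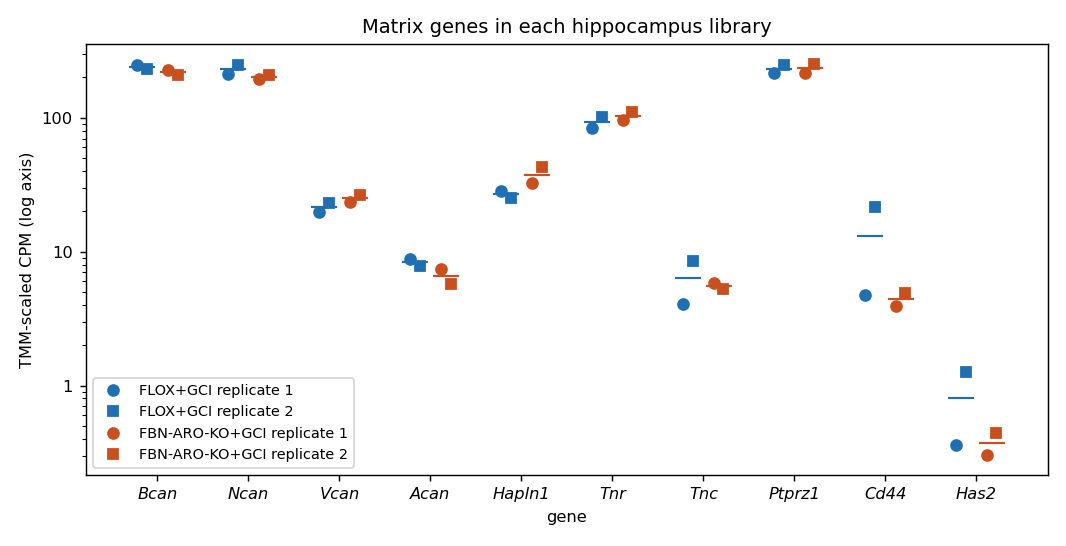
TMM-scaled CPM on a log axis is plotted for each of the 10 genes, with circles for replicate 1, squares for replicate 2 and short lines for the group means (FLOX+GCI blue, FBN-ARO-KO+GCI orange). The groups are apart for Bcan, Ncan, Vcan, Acan and Hapln1, and for Cd44, Has2 and Tnc a single library, FLOX+GCI replicate 2, lies above the other 3.

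Among the members, Hapln1 and Cd44 had the lowest unadjusted p-values, and Vcan is the chromosomal neighbor of Hapln1. The 250 bases before their transcription start are shown because Hapln1 and Cd44 are the members that passed the unadjusted test and Vcan serves as the comparison beside Hapln1. The sequences are those of RefSeq on GRCm38.p6, each of which matched a single place in mm9, the build of the counts, and are written 5′ to 3′ on the strand of the gene, with CpG dinucleotides, the sites of DNA methylation, in capitals. The Cd44 promoter lies at chr2:102741823-102742072 (minus strand), that of Hapln1 at chr13:89679991-89680240 (plus strand) and that of Vcan at chr13:89882118-89882367 (minus strand), all in mm9.
Cd44: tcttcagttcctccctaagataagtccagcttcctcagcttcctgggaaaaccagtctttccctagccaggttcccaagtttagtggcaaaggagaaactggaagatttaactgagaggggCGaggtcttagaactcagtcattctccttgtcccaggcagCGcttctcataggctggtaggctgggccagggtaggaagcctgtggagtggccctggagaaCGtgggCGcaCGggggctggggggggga
Hapln1: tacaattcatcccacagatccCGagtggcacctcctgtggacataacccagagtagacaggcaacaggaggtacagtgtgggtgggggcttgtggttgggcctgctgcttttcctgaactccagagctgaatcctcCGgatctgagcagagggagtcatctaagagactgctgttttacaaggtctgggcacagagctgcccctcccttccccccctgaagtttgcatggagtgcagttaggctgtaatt
Vcan: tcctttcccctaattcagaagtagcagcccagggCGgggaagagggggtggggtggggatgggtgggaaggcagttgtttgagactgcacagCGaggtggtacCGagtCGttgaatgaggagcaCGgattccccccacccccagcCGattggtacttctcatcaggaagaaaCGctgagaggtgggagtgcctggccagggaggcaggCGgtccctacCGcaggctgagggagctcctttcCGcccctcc
Hapln1 held 2 CpG, Cd44 5 and Vcan 10, beside a median of 6 over the 32851 promoters of the same length, and their GC content was 54.4%, 56.4% and 62.4%, beside a median of 52.4%. Promoter sequences were found for 9 of the 10 genes. Of these, Acan and Ptprz1 were the richest in CpG, with 26 and 22. None of the 9 held the AP-1 motif TGANTCA, which reads the same on both strands when N is left free and stood in 6.75% of all promoters, or the STAT motif TTCNNNGAA, which stood in 7.02%. The letters TATAAA of the TATA box, searched on both strands, stood in 12.4% of all promoters and in those of Ncan and Tnc among the 9. The Ncan match, on the opposite strand, began 11 bases before the start. That of Tnc began 205 or 126 bases before it, depending on the start site used. These matches describe letters in the window only.

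Hapln1 encodes the link protein that fastens lecticans to hyaluronan and is needed for compact perineuronal nets. Hapln1 (mm9 chr13:89680241-89751437, plus strand) stood at 28.6 and 25.3 CPM in FLOX+GCI replicates 1 and 2, and at 32.5 and 42.8 CPM in FBN-ARO-KO+GCI replicates 1 and 2. Both FBN-ARO-KO+GCI libraries were higher than both FLOX+GCI libraries, and the FBN-ARO-KO+GCI libraries differed from each other by more than the FLOX+GCI libraries did. The means were 26.9 ± 2.36 (SD, n = 2) and 37.7 ± 7.25 (SD, n = 2), a log2 fold change of 0.48 (SE 0.15, quasi-likelihood test of edgeR, unadjusted p = 0.0121, adjusted p = 0.245). Across 13869 tested genes, log2 fold changes fell with the GC content of the transcript (Spearman rho -0.55, a description, since genes share their libraries). The Hapln1 transcript was 38.0% GC, beside a median of 50.6%, and when that trend and the trend with length were removed its log2 fold change was 0.18 (unadjusted p = 0.0852). Without FBN-ARO-KO+GCI replicate 2 it was 0.27, and without FBN-ARO-KO+GCI replicate 1 it was 0.66.

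Vcan encodes versican, the lectican of oligodendrocyte precursors and of loose matrix. Vcan (mm9 chr13:89794915-89882117, minus strand) had 19.6 and 23.2 CPM in the FLOX+GCI libraries, against 23.6 and 26.6 CPM in the FBN-ARO-KO+GCI libraries. The groups did not overlap, although FLOX+GCI replicate 2 and FBN-ARO-KO+GCI replicate 1 were nearly level, and the log2 fold change was 0.23 (SE 0.13, adjusted p = 0.388). Once GC content and length were corrected for it was 0.06, with a transcript GC content of 43.8%. It was 0.35 without FLOX+GCI replicate 2, 0.11 without FLOX+GCI replicate 1 and 0.14 without FBN-ARO-KO+GCI replicate 2. Vcan and Hapln1 point toward each other with 43.5 kb and no counted gene between them. Within each library, Hapln1 exceeded Vcan per kb of exon by 4.17- and 3.11-fold in the FLOX+GCI libraries, against 3.94- and 4.60-fold in the FBN-ARO-KO+GCI libraries, so that the groups overlapped in this ratio.

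Each lectican of the genome lies beside a link protein gene, and the other pairs were read in the same way. Hapln2, the link protein of nodes of Ranvier, lies 21.4 kb from Bcan and had a log2 fold change of 0.10 (SE 0.12) beside -0.13 (SE 0.08) for Bcan. Hapln4, the link protein of brevican-rich nets, lies 2.22 kb from Ncan and had -0.15 (SE 0.08) beside -0.19 (SE 0.09) for Ncan. Hapln3 lies 40 bases from Acan on the opposite strand and had -0.96 (SE 0.39, unadjusted p = 0.0403, adjusted p = 0.283) beside -0.34 (SE 0.18) for Acan, on 23 and 22 counts in the FLOX+GCI libraries, against 17 and 12 counts in the FBN-ARO-KO+GCI libraries. In 3 of the 4 pairs both genes had the same sign. With GC content and length corrected Hapln2 was at 0.33 and Bcan at 0.09, Hapln4 at -0.03 and Ncan at -0.15, so that the sign was shared in all 4. With 4 pairs, matching signs cannot be told from signs that are unrelated. None of these 8 genes passed at an adjusted p of 0.05 in edgeR's quasi-likelihood test. Hapln1 and Hapln3 passed at an unadjusted p of 0.05, beside 16.5% of all tested genes. With the correction Hapln2 and Hapln3 passed unadjusted, beside 10.03% of all tested genes.

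Bcan encodes brevican, which glia secrete around synapses and nets. Bcan (mm9 chr3:87791453-87804278, minus strand) stood at 248 and 231 CPM in the FLOX+GCI libraries, against 228 and 208 CPM in the FBN-ARO-KO+GCI libraries, means of 239 ± 12.2 and 218 ± 14.2 CPM (SD, n = 2 each). The groups were apart by only the small step between FLOX+GCI replicate 2 and FBN-ARO-KO+GCI replicate 1, and the log2 fold change of -0.13 (SE 0.08) had an adjusted p of 0.420 in edgeR's test. It was -0.08 without FLOX+GCI replicate 1, -0.06 without FBN-ARO-KO+GCI replicate 2 and -0.20 without FBN-ARO-KO+GCI replicate 1. Its transcript had the highest GC content of the 10, at 61.3%, and once GC content and length were corrected for its log2 fold change was 0.09, opposite in sign.

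Ncan encodes neurocan, which binds tenascins and neural cell adhesion molecules. Ncan (mm9 chr8:72616984-72644772, minus strand) had 212 and 249 CPM in the FLOX+GCI libraries, against 194 and 209 CPM in the FBN-ARO-KO+GCI libraries. Both FBN-ARO-KO+GCI libraries were below both FLOX+GCI libraries, with FLOX+GCI replicate 1 and FBN-ARO-KO+GCI replicate 2 almost level. The log2 fold change was -0.19 (SE 0.09, unadjusted p = 0.0777, adjusted p = 0.345), and it was -0.08 without FLOX+GCI replicate 2 and -0.30 without FLOX+GCI replicate 1. The ratio of Ncan to Bcan per kb was 0.388 and 0.490 in the FLOX+GCI libraries, against 0.386 and 0.456 in the FBN-ARO-KO+GCI libraries, which overlapped.

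Acan encodes aggrecan. Acan (mm9 chr7:86198369-86259985, plus strand) was at 8.86 and 7.87 CPM in the FLOX+GCI libraries, against 7.42 and 5.73 CPM in the FBN-ARO-KO+GCI libraries, on 168 to 246 counts per library. FBN-ARO-KO+GCI replicate 2 was the lowest and the groups did not overlap, yet the log2 fold change of -0.34 (SE 0.18) did not pass (unadjusted p = 0.0995, adjusted p = 0.375), and without FBN-ARO-KO+GCI replicate 2 it was -0.17 and without FBN-ARO-KO+GCI replicate 1 it was -0.55. Pvalb, the marker of the net-bearing interneurons, stood at 46.4 and 39.7 CPM in the FLOX+GCI libraries, against 40.5 and 38.9 CPM in the FBN-ARO-KO+GCI libraries. The 10 interneuron markers together summed to between 1266 and 1368 CPM, and 1 of the 10 had an unadjusted p under 0.05, beside 16.5% of all tested genes. Their part in the Acan values was not tested, and in whole tissue fewer cells of a type and less RNA per cell cannot be told apart.

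Tnr encodes tenascin-R, which oligodendrocyte lineage cells and some interneurons make and which crosslinks lecticans. Tnr (mm9 chr1:161667641-161855053, plus strand) had 84.0 and 101 CPM in the FLOX+GCI libraries, against 96.0 and 110 CPM in the FBN-ARO-KO+GCI libraries. The libraries of the groups interleaved, and the log2 fold change was 0.15 (SE 0.11, adjusted p = 0.492), with 0.15 also once GC content and length were corrected for. It moved with single libraries, to 0.03 without FLOX+GCI replicate 1, 0.05 without FBN-ARO-KO+GCI replicate 2, 0.25 without FBN-ARO-KO+GCI replicate 1 and 0.29 without FLOX+GCI replicate 2.

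Tnc encodes tenascin-C, which is present in the developing and the injured brain. Tnc (mm9 chr4:63620819-63681760, minus strand) had 4.07 and 8.56 CPM in the FLOX+GCI libraries, against 5.79 and 5.29 CPM in the FBN-ARO-KO+GCI libraries. Both FBN-ARO-KO+GCI libraries lay between the FLOX+GCI libraries, of which replicate 2 was high and replicate 1 low. The log2 fold change was -0.19 (SE 0.32, adjusted p = 0.787), and it was 0.44 without FLOX+GCI replicate 2 and -0.62 without FLOX+GCI replicate 1. A noncoding gene on the opposite strand shares 176 exon bases with Tnc, and whether reads were counted by strand is not stated.

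Ptprz1 had the least difference of the 10. Ptprz1 (mm9 chr6:22825502-23002916, plus strand) stood at 216 and 249 CPM in the FLOX+GCI libraries, against 214 and 254 CPM in the FBN-ARO-KO+GCI libraries, with a log2 fold change of 0.01 (SE 0.11, adjusted p = 0.978). The spread between the libraries of each group exceeded the difference between the groups, and the sign turned under library totals alone (-0.03) and once GC content and length were corrected for (-0.16). The markers of oligodendrocyte precursors, which express Ptprz1 and Vcan, summed to between 353 and 388 CPM over the 4 libraries. At an unadjusted p of 0.05, 2 of these 10 had higher and 1 had lower FBN-ARO-KO+GCI values, beside 8.72% and 7.82% of all tested genes.

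Cd44 had the largest fold change of the 10, and it rested on one library. Cd44 (mm9 chr2:102651298-102741822, minus strand) had 4.71 and 21.5 CPM in FLOX+GCI replicates 1 and 2, and 3.92 and 4.95 CPM in FBN-ARO-KO+GCI replicates 1 and 2. FLOX+GCI replicate 2 alone was high, while FLOX+GCI replicate 1 lay between the FBN-ARO-KO+GCI libraries, so the groups overlapped. The means were 13.1 ± 11.8 and 4.43 ± 0.727 CPM (SD, n = 2 each), and the log2 fold change was -1.56 (SE 0.59, edgeR unadjusted p = 0.0322, adjusted p = 0.270). Without FLOX+GCI replicate 2 it was -0.09 (adjusted p = 0.921 in edgeR), and without FLOX+GCI replicate 1 it was -2.27. Each of these values sets a single FLOX+GCI library, assumed to vary like the others, against the FBN-ARO-KO+GCI pair.

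Has2, one of the enzymes that extrude hyaluronan, had the same form at a much lower level. Has2 (mm9 chr15:56497182-56526094, minus strand) had 9 and 31 counts in the FLOX+GCI libraries, against 10 and 13 counts in the FBN-ARO-KO+GCI libraries, or 0.359 and 1.26 CPM against 0.302 and 0.444 CPM. FLOX+GCI replicate 2 was again the high library, the others overlapped, and the log2 fold change of -1.11 (SE 0.64, adjusted p = 0.399) was 0.04 without it and -1.75 without FLOX+GCI replicate 1. The antisense transcript Has2as, which shares 182 exon bases with Has2 on the opposite strand, had at most 3 counts in any library. The other hyaluronan synthases were not high in that library alone to this extent: Has1 had 0.519, 0.527, 0.452 and 0.648 CPM and Has3 had 2.19, 3.65, 2.93 and 2.90 CPM in FLOX+GCI replicates 1 and 2 and FBN-ARO-KO+GCI replicates 1 and 2.

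**Figure D3:**
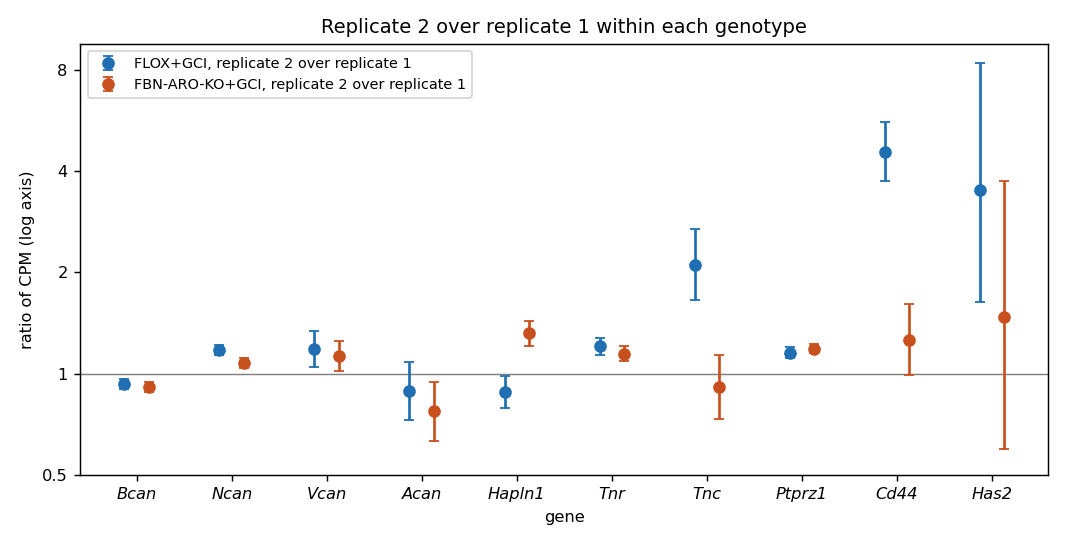
For each gene the ratio of TMM-scaled CPM in replicate 2 over replicate 1 is plotted on a log axis within FLOX+GCI (blue) and within FBN-ARO-KO+GCI (orange), with exact 95% intervals that cover counting error only. In FLOX+GCI the ratio was 4.56 for Cd44, 3.50 for Has2 and 2.10 for Tnc, while the other 7 genes lay between 0.883 and 1.204.

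The libraries of one genotype were next compared with each other, since Cd44, Has2 and Tnc differed by more than 2-fold within FLOX+GCI. In FLOX+GCI, replicate 2 exceeded replicate 1 by 4.56-fold for Cd44 (exact Clopper-Pearson 95% interval 3.73 to 5.61), a ratio above that of 99.9% of all tested genes. The same ratio was 3.50 for Has2 (1.63 to 8.36) and 2.10 for Tnc (1.65 to 2.69), above those of 99.8% and 99.1% of tested genes. In FBN-ARO-KO+GCI, replicate 2 over replicate 1 was 1.26 for Cd44 (0.989 to 1.61), 1.47 for Has2 (0.596 to 3.75) and 0.914 for Tnc (0.734 to 1.14), intervals that all include a ratio of 1. Hapln1 was the member with the most unequal pair of FBN-ARO-KO+GCI libraries beyond counting error, at 1.32-fold (1.21 to 1.43). These intervals cover counting error and not the variation between animals.

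Markers that moved with FLOX+GCI replicate 2 were read over their whole lists. Of the 12 reactive astrocyte markers 11 were tested, and 9 of these were higher in FLOX+GCI replicate 2 than in FLOX+GCI replicate 1, beside 50.3% of all tested genes. Their median log2 ratio was 1.00. Gfap, the filament protein of astrocytes, had 396, 900, 502 and 560 CPM, and Timp1, a protease inhibitor of reactive glia, had 0.199, 8.23, 0.151 and 0.137 CPM in FLOX+GCI replicates 1 and 2 and FBN-ARO-KO+GCI replicates 1 and 2. Timp1 was the marker below the filter on low counts. In the same order, Vim of this list had 66.5, 72.5, 54.8 and 44.1 CPM, little apart between the FLOX+GCI libraries. Both FBN-ARO-KO+GCI libraries were below both of these. The log2 fold change of Vim was -0.49 (SE 0.12, adjusted p = 0.238 in edgeR's test), or -0.41 with GC content and length corrected. Lcn2, also of this list, had 2.35, 4.95, 8.17 and 5.63 CPM, with both FBN-ARO-KO+GCI libraries above FLOX+GCI replicate 2. With all 4 libraries, FLOX+GCI replicate 2 included, 5 of the 11 tested markers had lower FBN-ARO-KO+GCI values at an unadjusted p of 0.05. Another 1 had higher values. Of all tested genes, 7.82% passed with lower and 8.72% with higher values. The 10 general astrocyte markers did not follow this order, with sums of 6604 and 6074 CPM in the FLOX+GCI libraries, against 6731 and 7327 CPM in the FBN-ARO-KO+GCI libraries. The microglia and macrophage list summed to between 372 and 405 CPM, and the leukocyte list to between 10.3 and 13.4 CPM with 2 of 10 genes above the filter, so the immune cell markers did not separate FLOX+GCI replicate 2. Markers of meningeal fibroblasts, which also make Cd44 and Has2, summed to 440 and 220 CPM in the FLOX+GCI libraries, against 264 and 138 CPM in the FBN-ARO-KO+GCI libraries, and all 10 were lower in FLOX+GCI replicate 2 than in FLOX+GCI replicate 1. The part of the reactive astrocyte markers in the Cd44, Has2 and Tnc values was not tested.

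**Figure D4:**
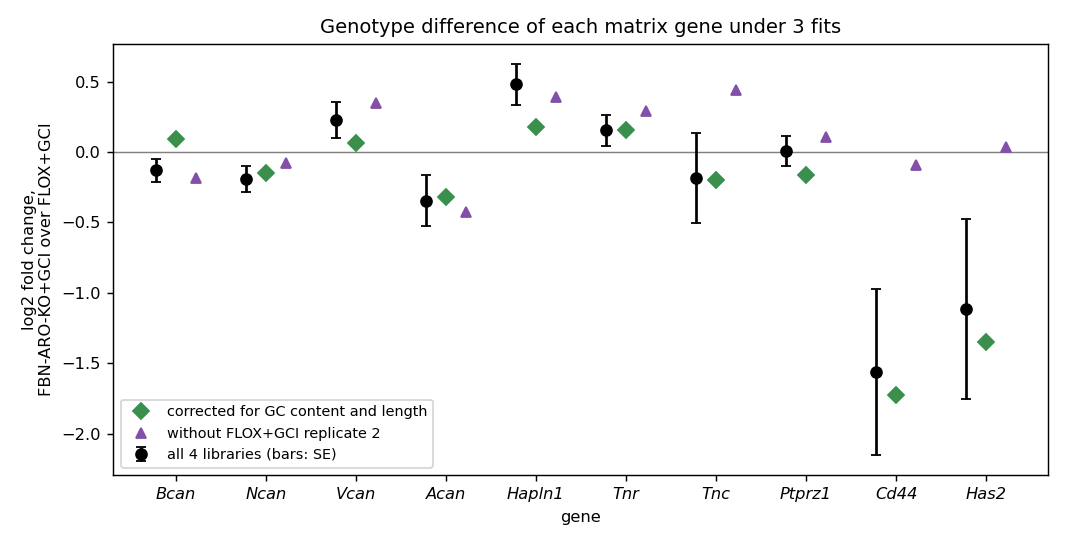
The log2 fold change of FBN-ARO-KO+GCI over FLOX+GCI is plotted for each gene with all 4 libraries (black, with SE), with GC content and length corrected (green) and without FLOX+GCI replicate 2 (purple). Cd44 moves from -1.56 to -0.09 and Has2 from -1.11 to 0.04 without that library, and Hapln1 from 0.48 to 0.18 with the correction.

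The next question was whether genes that make, trim or read this matrix differed. In the 5 lists of related genes, 100 of 106 genes were tested and none passed at an adjusted p of 0.05 in edgeR's quasi-likelihood test, with a smallest adjusted p of 0.238, while DESeq2 called 1, Chpf2, beside 4.6% of all genes with an adjusted p. At an unadjusted p of 0.05, 14 passed (14 of 100, beside 16.5% of all tested genes), 3 with higher and 11 with lower values in FBN-ARO-KO+GCI, and the median log2 fold change of the 100 was -0.09. The genes named below are the 3 of each list with the smallest unadjusted p, so their p-values are the lowest of their lists by choice.

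Of 20 other proteoglycans and lectican partners, all were tested, 1 was higher and 3 were lower unadjusted, and the median log2 fold change was -0.15, or -0.06 with GC content and length corrected. Sdc3, a heparan sulfate proteoglycan of axons, had 284 and 321 CPM in the FLOX+GCI libraries, against 254 and 257 CPM in the FBN-ARO-KO+GCI libraries, giving a log2 change of -0.25 (SE 0.08, adjusted p = 0.248) that was -0.10 once GC content and length were corrected for. Spock1, the secreted proteoglycan testican, had 339 and 301 CPM against 359 and 377 CPM, a log2 fold change of 0.20 (SE 0.08, adjusted p = 0.284), or 0.12 with the same correction. Hapln3 was described above.

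Of 20 genes for hyaluronan synthesis, breakdown and binding, 17 were tested, 1 was higher and 1 lower unadjusted, and the median was -0.05, or -0.13 corrected. Tnfaip6, which remodels hyaluronan by transferring heavy chains to it in inflamed tissue, had 5.55 and 7.42 CPM in the FLOX+GCI libraries, against 8.29 and 9.56 CPM in the FBN-ARO-KO+GCI libraries. The log2 change was 0.46 (SE 0.19, adjusted p = 0.289), or 0.30 once GC content and length were corrected for. Hyal2, a hyaluronidase, had 15.2 and 13.7 CPM against 12.2 and 9.42 CPM, a log2 fold change of -0.42 (SE 0.16, adjusted p = 0.271), and Ugdh, which supplies UDP-glucuronate for the chains, had 24.2 and 24.1 against 27.3 and 28.4 CPM and a log2 fold change of 0.20 (SE 0.10, adjusted p = 0.336). The corrected values of Hyal2 and Ugdh were -0.23 and 0.13. The groups did not overlap in these 3 genes, which were picked for their low p, nor in 2 others of the 17 (5 in all), beside 51.8% of all tested genes.

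Of 24 genes for chondroitin sulfate synthesis and modification, 23 were tested, 0 were higher and 3 lower unadjusted, and the median was -0.04, or -0.01 corrected. Chpf2, a chondroitin polymerizing factor, had 47.6 and 49.7 CPM in the FLOX+GCI libraries, against 37.9 and 31.1 CPM in the FBN-ARO-KO+GCI libraries. Its log2 fold change was -0.49 (SE 0.11, edgeR unadjusted p = 0.00292, adjusted p = 0.238), or -0.37 once GC content and length were corrected for. It shares 2466 exon bases with Smarcd3 on the opposite strand, so its counts are uncertain where strand was not used. Xylt2 and B3gat3, which build the linker between core protein and chain, had log2 fold changes of -0.26 and -0.18, and once GC content and length were corrected for of -0.05 and 0.09, so that the sign of B3gat3 turned.

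Of 18 matrix-cleaving proteases 17 were tested, 1 was higher and 0 were lower unadjusted, and the median was -0.09, or -0.03 corrected. Adam10, a sheddase of Cd44 among other surface proteins, had 105 and 93.0 CPM in the FLOX+GCI libraries, against 109 and 129 CPM in the FBN-ARO-KO+GCI libraries, giving a log2 change of 0.27 (SE 0.10, adjusted p = 0.274) that was 0.07 after the correction. Mmp15, a membrane-bound metalloproteinase, and Adamts8 had log2 fold changes of -0.26 and -0.42, with adjusted p-values of 0.314 and 0.319 in edgeR's test, and of -0.06 and -0.29 with the correction. Adamts4, which cleaves aggrecan and brevican, had 14.7 and 18.7 CPM against 16.4 and 14.8 CPM, and Adamts5 had 1.80 and 1.26 against 1.12 and 1.502 CPM; both overlapped between the groups and were chosen for their substrates after their values were seen.

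Of 24 receptors and ligands of the matrix 23 were tested, 0 were higher and 4 lower unadjusted, and the median was -0.09, or -0.03 corrected. Rtn4r, the Nogo receptor, had 105 and 95.2 CPM in the FLOX+GCI libraries, against 86.3 and 71.0 CPM in the FBN-ARO-KO+GCI libraries, giving a log2 change of -0.35 (SE 0.11, adjusted p = 0.247). Ptprs, a receptor phosphatase that binds chondroitin sulfate chains, had 540 and 559 against 506 and 459 CPM and a log2 fold change of -0.19 (SE 0.08, adjusted p = 0.283). With GC contents of 62.7% and 60.3%, their log2 fold changes were -0.07 and -0.03 after the correction. Msn, moesin, which ties the tail of Cd44 to actin, had 37.6 and 58.9 CPM in the FLOX+GCI libraries, against 35.5 and 33.9 CPM in the FBN-ARO-KO+GCI libraries. Like Cd44 it was highest in FLOX+GCI replicate 2, but unlike Cd44 its groups did not overlap. With all 4 libraries its log2 fold change was -0.48 (SE 0.19, adjusted p = 0.281 in edgeR's test), and -0.55 after the correction.

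**Figure D5:**
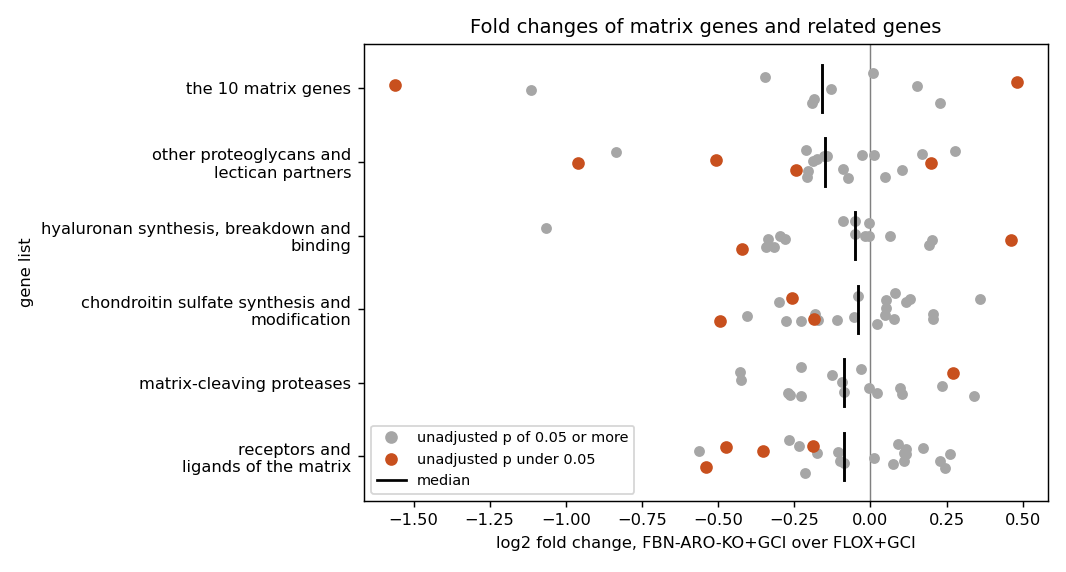
Each point is the log2 fold change of FBN-ARO-KO+GCI over FLOX+GCI of one tested gene, in rows for the 10 matrix genes and the 5 lists of related genes, with genes of an unadjusted p under 0.05 in orange and the median of each list as a black line. The medians lie between -0.16 and -0.04, and 2 of the 10 matrix genes and 14 of the 100 related genes are orange.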

How the data were processed

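Hippocampal RNA of 4 libraries was sequenced as 50 nt single-end reads after TruSeq total RNA preparation. Per the labels and the submitters' processing notes, the authors used bcl2fastq, aligned to mm9 with TopHat2 2.0.8b, counted with HTSeq (version, strand setting and annotation release not given in the sources used here) and deposited raw read counts per gene symbol. The 5 counters of unassigned reads were left out, of which reads outside genes or in several genes took 8.24% to 8.99% of all entries. Reads without a unique alignment took a further 35.1% to 36.5% of all entries. Replicates were not duplicates, with chi-square per degree of freedom of 10.9 in FLOX+GCI and 12.8 in FBN-ARO-KO+GCI.

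Counts were tested with edgeR 4.0.16 in R 4.3.3 (quasi-likelihood test, TMM, filterByExpr with a minimum count of 10, Benjamini-Hochberg adjustment over all genes tested, threshold 0.05), and the SE was approximated by dividing each log2 fold change by √F. Alternatives were DESeq2 1.42.0, other scalings, filters and tests, a replicate block, a correction for GC content and length (splines with 5 degrees of freedom on the longest GENCODE M1 coding transcript), and each library left out. The scripts were tested on simulated data. Groups and replicate numbers came from the labels. Named genes were all 10 members, in each related list the 3 with the smallest unadjusted p, and Cyp19a1, and markers where a result turns on them. The members and lists were chosen with earlier results of these data known.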

Additional observations from a re-analysis of the deposited data

How the results depend on the processing

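Of 129 member fold changes under the alternatives, 113 kept their direction and their side of the threshold, and 5 from DESeq2 kept their direction but had no adjusted p. With GC content and length corrected, Bcan was at 0.094 and Ptprz1 at -0.16 on the log2 scale, Ptprz1 was at -0.031 with library totals only, and 1 member passed unadjusted. Leaving out each library in turn gave -0.62 to 0.44 for Tnc, -1.75 to 0.039 for Has2, -0.12 to 0.12 for Ptprz1 and -0.17 to 0.074 for the median of the members. It gave 0 to 1 members adjusted, 0 to 5 members unadjusted, 0 to 4 related genes and 0 to 193 of all genes, where the count without FLOX+GCI replicate 1 was 193, without FLOX+GCI replicate 2 it was 127, and without either FBN-ARO-KO+GCI library 0. Cd44 was the member called, without FLOX+GCI replicate 1, where the lone FLOX+GCI library, the high one, was assumed to vary like the FBN-ARO-KO+GCI libraries. DESeq2 had 1 member unadjusted, 1 related gene and 287 genes in all, the likelihood ratio test 1 related gene and 294 genes, and the filter of at least 1 count 5 genes, against 2 with the quasi-likelihood test. The cause of these differences was not tested. The labels do not say that same-numbered libraries belong together, so the numbers were not taken as pairs. The shifts between replicates of the 2 groups correlated weakly (0.129 across genes), but 2 pairs cannot decide whether a pairing exists. From replicate 1 to replicate 2, meningeal fibroblast markers fell in both groups (median log2 ratio -1.25 in FLOX+GCI and -1.72 in FBN-ARO-KO+GCI). Reactive astrocyte markers moved in opposite directions (1.00 and -0.31). With the replicate block, 1 member (Cd44, log2 fold change -1.27, adjusted p = 0.0437), 1 related gene (Itih2) and 184 genes passed. With the block and the correction for GC content and length together, 0 members passed adjusted and 4 unadjusted, Bcan was at 0.094 and Ptprz1 at -0.16, and 2 genes passed in all. At 9 to 31 counts, depth limits Has2.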

Other observations

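Tnn, a tenascin related to Tnc that is chiefly known from bone and stem cell niches, fell below the filter on low counts and was picked out after its values were seen. The FLOX+GCI libraries held 8 and 44 counts of it (replicates 1 and 2) and the FBN-ARO-KO+GCI libraries 2 and 3. FLOX+GCI replicate 2 was the high library, as for Tnc, Cd44 and Has2. Adamts1, a protease that cleaves lecticans, had 25.0 and 40.5 CPM in the FLOX+GCI libraries, against 26.4 and 22.2 CPM in the FBN-ARO-KO+GCI libraries, and was also chosen after its values were seen. Its log2 fold change was -0.43 (SE 0.21, edgeR adjusted p = 0.354) with all 4 libraries, of which FLOX+GCI replicate 2 was the highest.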
